A study of Mus musculus with 15 samples.

Results

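Expression of 10 genes of glycolysis and of the response to low oxygen was examined in mouse skin after wound healing. The genes were Slc2a1, Hk2, Pfkl, Aldoa, Pgk1, Ldha, Bnip3, Car9, Egln3 and Ndrg1, and they were picked by symbol from the 18929 genes of the table. All 10 were found in it, and all 10 passed the filter on low counts that kept 15369 genes.

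The mice were male, wild-type balb/c animals aged 4 to 6 weeks with a full-thickness wound of 10 mm or 15 mm cut into the back. Wounds of each size were filled with acellular Matrigel beads (the acellular group) or with beads carrying mesenchymal stem cells (MSCs) at high density, printed sparsely among acellular beads (the HDB group). Matrigel is a gel of basement membrane proteins, and the MSCs came from human umbilical cord, while the table lists mouse genes. The remaining group was normal skin, so that RNA from 15 samples was sequenced, 3 per group. For the sequenced skin the methods state an implantation of 4 weeks, although the wounds were followed to day 21. Whether transcripts of the human cells entered the counts was not tested.

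Depth was similar, with 15840551 to 18404188 estimated counts per sample. No source states that the 3 samples of a group came from separate animals, so p-values measure the spread between these samples. Levels are CPM, the count of a gene relative to the total of its library, after TMM scaling, a correction for library composition. Among epidermal markers Krt5 was the most abundant, with a mean log2 CPM of 12.11. Skeletal muscle markers were also present, led by Acta1 with a mean log2 CPM of 11.48, and their level varied widely between samples. The sample labelled acellular 15 mm replicate 1 stood apart in its hair shaft and inner root sheath genes, whose summed level was 16800 CPM against 30.2 and 1210 CPM in the rest of its group. In bulk tissue, fewer cells of a type cannot be told apart from less RNA per cell.

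Cells short of oxygen stop destroying the alpha subunits of the hypoxia-inducible factors (HIFs), because the prolyl hydroxylases that mark these subunits for degradation by the VHL complex need oxygen. The HIFs then pair with ARNT, bind hypoxia response elements and raise transcription of genes for glucose uptake, glycolysis, acid export and mitochondrial turnover. Glycolysis is also run at a high rate by fast skeletal muscle, a thin sheet of which lies beneath mouse skin, and by proliferating keratinocytes. Several of its steps are carried out by isozymes that differ between tissues.

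The promoters are shown because a hypoxia response element is the sequence that these genes are known to share. Its core, ACGTG or GCGTG, was searched on both strands of the RefSeq promoter windows (250 bases before to 50 bases after each start, build GRCm38.p6). Windows were present for 9 of the 10 genes, all but Ndrg1, and numbered 12, since Ldha and Aldoa have several. A core was found in 11 of these 12 windows and in 14380 of the 32851 windows of all genes (43.8%). ACGTG itself was found in 9 of the 12 and in 19.6% of all windows. A match is a description of the letters and not a bound site. The 150 bases before the start follow for 5 of the genes, of which Slc2a1 and Pfkl were higher and Hk2, Ldha and Bnip3 lower in wounds. They are written 5′ to 3′ on the strand of the gene, and capitals mark each core, which reads CACGT or CACGC where it lies on the opposite strand.
Slc2a1, chr4:119108595-119108744, forward strand: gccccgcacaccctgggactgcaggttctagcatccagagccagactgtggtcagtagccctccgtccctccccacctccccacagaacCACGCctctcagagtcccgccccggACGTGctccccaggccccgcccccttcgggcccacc
Pfkl, chr10:78009808-78009957, reverse strand: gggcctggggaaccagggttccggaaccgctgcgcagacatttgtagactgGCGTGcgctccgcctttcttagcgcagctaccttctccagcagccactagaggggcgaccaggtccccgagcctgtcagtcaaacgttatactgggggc
Hk2, chr6:82774455-82774604, reverse strand: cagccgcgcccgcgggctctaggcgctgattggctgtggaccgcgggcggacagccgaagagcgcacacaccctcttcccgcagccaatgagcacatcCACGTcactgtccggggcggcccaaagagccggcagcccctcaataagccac
Ldha, chr7:46845654-46845803, forward strand: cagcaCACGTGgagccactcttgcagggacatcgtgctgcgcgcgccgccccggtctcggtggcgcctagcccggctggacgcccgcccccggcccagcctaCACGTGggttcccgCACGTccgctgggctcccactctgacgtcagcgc
Bnip3, chr7:138909507-138909656, reverse strand: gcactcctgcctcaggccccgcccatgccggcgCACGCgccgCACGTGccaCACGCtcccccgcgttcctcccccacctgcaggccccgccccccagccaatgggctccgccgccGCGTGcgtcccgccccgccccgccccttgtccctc
Ldha held 7 core matches in its first window and Bnip3 held 5, counting CACGTG, which reads the same on both strands, at each of its starting bases. Slc2a1 held ACGTG 36 bases and GCGTG 61 bases before the start. Pfkl held GCGTG alone, 99 bases before the start, and in Egln3 the core lay 229 bases before it, outside the stretch printed for the others. Cores were thus present in genes that rose and in genes that fell.

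Levels of different genes were compared per kilobase of the longest coding transcript. In normal skin Aldoa was the most abundant, at 5130 ± 738 CPM per kb (SD, n = 3). Ldha followed at 1030 ± 98.7, Pgk1 at 353 ± 36.6, Bnip3 at 149 ± 3.48, Ndrg1 at 84.6 ± 9.27 and Hk2 at 54.1 ± 16.2 CPM per kb. Egln3 was at 16.8 ± 1.97, Slc2a1 at 13.7 ± 0.519, Pfkl at 12.9 ± 1.42 and Car9 at 0.528 ± 0.0858 CPM per kb. Slc2a1 and Pfkl overlapped within 1 SD, and the other neighbours in this order did not. In the acellular 10 mm group Hk2, at 14.4 ± 4.47 CPM per kb, had a lower mean than Slc2a1 at 32.8 ± 8.80 and Egln3 at 56.8 ± 20.8. There Ndrg1, Egln3 and Bnip3 overlapped with each other within 1 SD, Slc2a1 overlapped with Egln3 and Bnip3, and Pfkl overlapped with Hk2. Car9 was the least abundant in every group and rested on 12 to 61 counts per sample.

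**Figure D1:**
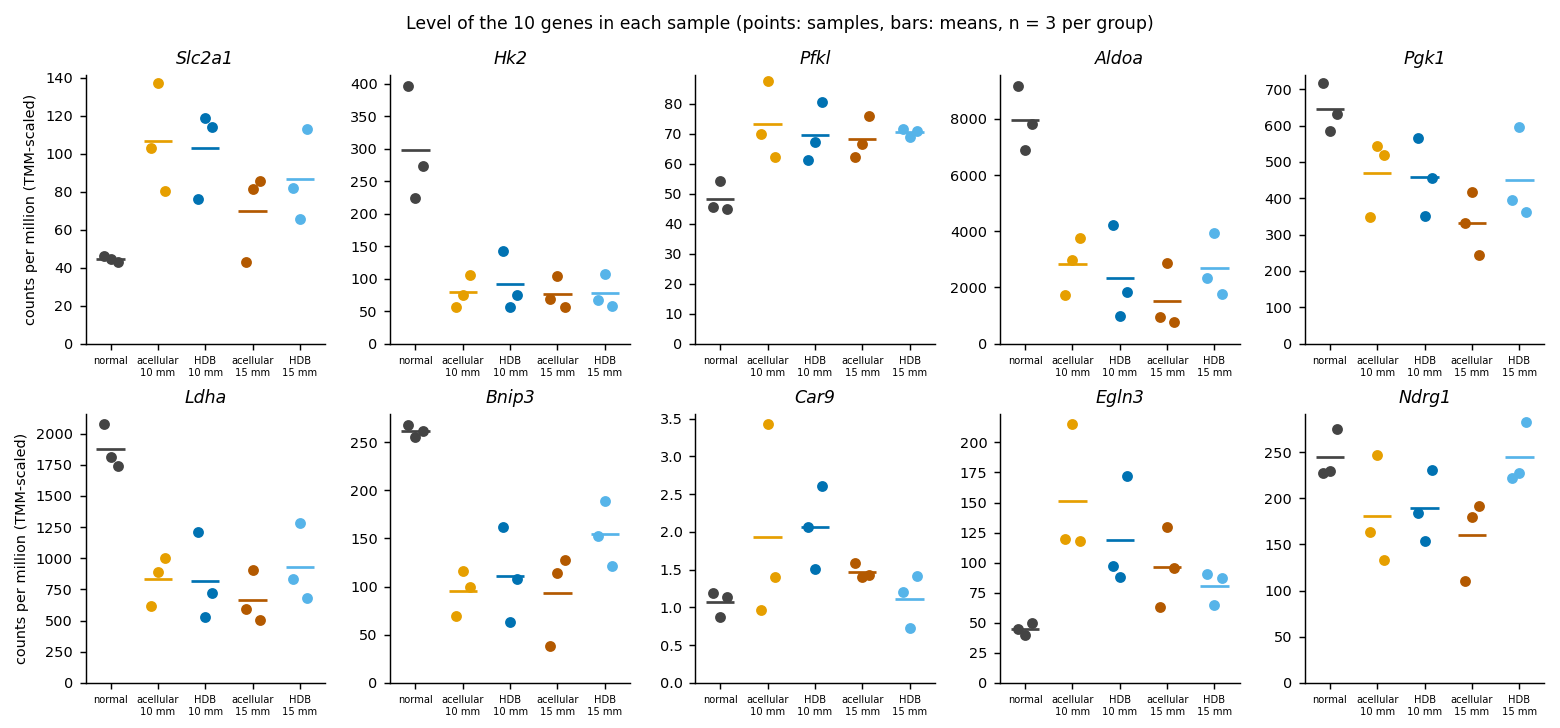
TMM-scaled CPM of each gene (vertical axes, linear and starting at 0) in normal skin and the 4 wound groups, where points are samples and bars are means of 3 samples. Hk2, Aldoa, Ldha and Bnip3 were higher in each normal sample than in any wound sample, and Egln3 and Pfkl were lower.

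Healed wounds differed from normal skin in 8 of the 10 genes, 3 of which were higher and 5 lower. Hk2, Aldoa, Ldha, Bnip3 and Pgk1 fell, by 3.69-fold for Hk2 and by 1.52-fold for Pgk1, while Egln3, Slc2a1 and Pfkl rose, by 2.43-fold, 2.03-fold and 1.46-fold. Ndrg1 and Car9 did not pass the test. The comparison set the mean of the 4 wound groups against normal skin in edgeR's quasi-likelihood test, with p-values adjusted over all genes and a threshold of 0.05. Of all genes tested, 30.9% were called, 14.2% higher and 16.7% lower, so many other genes moved as well. Without normal replicate 3 there were 5 calls among the members and 11.9% of all genes were called. Samples of wounds and normal skin did not overlap for 6 members, 2 higher and 4 lower, against 21% of all genes. The median log2 fold change was -0.48 for the 10 genes and 0.045 for all genes.

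Hk2, the hexokinase that traps glucose in insulin-sensitive tissues such as muscle, was at 397, 224 and 273 CPM in normal skin. It was at 57.0, 75.1 and 106 CPM in the acellular 10 mm samples, 142, 56.2 and 75.0 in the HDB 10 mm samples, 69, 104 and 55.6 in the acellular 15 mm samples and 66.6, 107 and 57.8 in the HDB 15 mm samples. Each normal sample exceeded every wound sample. The log2 fold change was -1.88 ± 0.27 (SE, edgeR adjusted p = 0.00139).

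Aldoa, the aldolase that splits fructose bisphosphate and the major form in muscle, was at 9160, 6890 and 7810 CPM in normal skin. The wound samples reached 4210 CPM at most, in HDB 10 mm replicate 1, and fell to 780 CPM in acellular 15 mm replicate 3. Every wound sample lay below every normal sample. The log2 fold change was -1.80 ± 0.41 (SE, edgeR adjusted p = 0.00853).

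Ldha, the lactate dehydrogenase subunit that favours lactate formation, was at 2080, 1810 and 1740 CPM in normal skin and between 503 and 1280 CPM in the 12 wound samples. Its log2 fold change was -1.22 ± 0.25 (SE, edgeR adjusted p = 0.00519), and no wound sample reached the normal range. Pgk1, the phosphoglycerate kinase that makes ATP, was at 717, 585 and 632 CPM in normal skin and between 243 and 597 CPM in wounds. Here HDB 15 mm replicate 2, at 597 CPM, lay within the normal range. The log2 fold change of Pgk1 was -0.61 ± 0.20 (SE, edgeR adjusted p = 0.0369). Its call was the least firm, and was lost on leaving out acellular 10 mm replicate 1, HDB 10 mm replicate 3, HDB 15 mm replicate 1 or 3, or any normal sample (adjusted p from 0.0512 to 0.132).

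Slc2a1 encodes GLUT1, the glucose transporter of keratinocytes and of many proliferating cells. It was at 46.2, 44.8 and 42.8 CPM in normal skin, at 103, 137 and 80.4 CPM in the acellular 10 mm samples and at 76.0, 119 and 114 CPM in the HDB 10 mm samples. The 15 mm samples held 43.0, 81.5 and 85.6 CPM with acellular beads and 81.7, 65.8 and 113 CPM with HDB. The acellular 15 mm sample at 43.0 CPM was replicate 1, the sample with the high hair genes, and it was the sole wound sample within the normal range. The log2 fold change was 1.02 ± 0.24 (SE, edgeR adjusted p = 0.00980) and 1.08 without that sample (adjusted p = 0.00262).

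Pfkl, the liver form of phosphofructokinase, was at 45.5, 54.4 and 45.0 CPM in normal skin and between 61.4 and 87.7 CPM in wounds. It had the smallest called rise, with a log2 fold change of 0.55 ± 0.12 (SE, edgeR adjusted p = 0.00671), and the HDB 15 mm samples lay as close together as 69.1 to 71.7 CPM. Without normal replicate 3 the adjusted p rose to 0.0507 for Pfkl and to 0.0572 for Slc2a1.

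Egln3 encodes PHD3, a prolyl hydroxylase that acts on HIF subunits and is itself a HIF target. Its level was 45.0, 39.5 and 50 CPM in normal skin, 120, 215 and 118 CPM in acellular 10 mm wounds and 96.8, 88.4 and 172 CPM in HDB 10 mm wounds. Acellular 15 mm wounds held 63.1, 130 and 95.7 CPM and HDB 15 mm wounds held 90.3, 65.0 and 87.1 CPM. Every wound sample lay above every normal sample. The log2 fold change of 1.28 ± 0.28 (SE, edgeR adjusted p = 0.00660) was the highest of the 10 genes.

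Bnip3, a mitochondrial protein that directs mitochondria to autophagy, went the opposite way. It was at 268, 255 and 262 CPM in normal skin and between 38.6 CPM (acellular 15 mm replicate 1) and 189 CPM (HDB 15 mm replicate 2) in wounds. Its log2 fold change was -1.24 ± 0.29 (SE, edgeR adjusted p = 0.00986), with no overlap. Ndrg1, a stress-induced protein of differentiating epithelium, was at 228, 230 and 275 CPM in normal skin and between 110 and 283 CPM in wounds, with a log2 fold change of -0.35 ± 0.20 (SE, edgeR adjusted p = 0.184). Car9, the membrane carbonic anhydrase that exports acid, was at 1.19, 0.87 and 1.14 CPM in normal skin and between 0.727 and 3.43 CPM in wounds. Its log2 fold change of 0.58 ± 0.36 (SE, edgeR adjusted p = 0.236) cannot be told from 0. The known HIF targets therefore did not share a direction, since Egln3 and Slc2a1 rose while Bnip3 and Ldha fell.

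**Figure D2:**
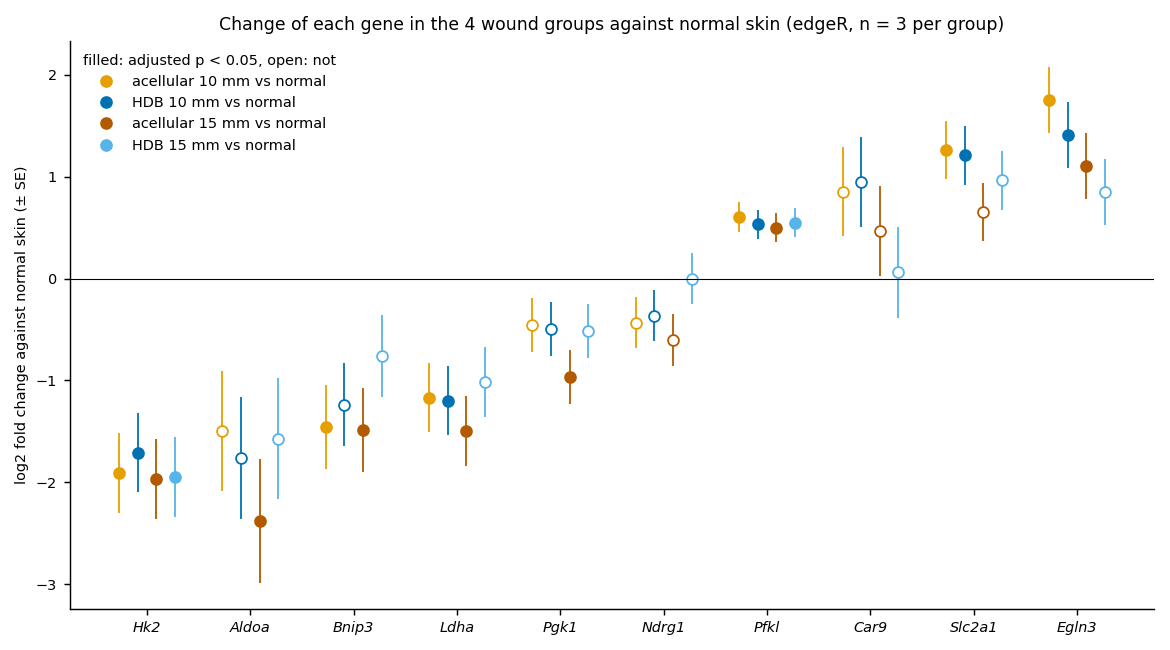
Log2 fold change against normal skin (vertical axis, ± SE) of each gene in each of the 4 wound groups, from edgeR with 3 samples per group, where filled points have an adjusted p below 0.05. Hk2 and Pfkl are filled in all 4 groups, and Car9 and Ndrg1 in none.

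Each wound group was also set against the same 3 normal samples. In acellular 10 mm wounds 6 of the 10 genes were called, 3 higher and 3 lower, where 20.3% of all genes were called (9.77% higher, 10.6% lower). In acellular 15 mm wounds 7 were called, 2 higher and 5 lower, where 30.2% of all genes were called (17.6% higher, 12.6% lower). In HDB 10 mm wounds 5 were called, 3 higher and 2 lower, against 12.3% (6.1% higher, 6.23% lower). In HDB 15 mm wounds 2 were called, Pfkl higher and Hk2 lower, against 5.18% (2.67% higher, 2.51% lower). Counts of members thus moved with the count of all genes called in that group, and they are no test of a difference between groups, which is given below. With the level of skeletal muscle genes as a covariate, 4 members were called in acellular 10 mm and 0 in acellular 15 mm wounds. In that fit 0 were called in HDB 10 mm and 1 in HDB 15 mm wounds. The shares of all genes called were then 9.17%, 4.39%, 0.39% and 2.11%. Fitted with normal skin alone, acellular 15 mm wounds gave 2 calls (6.57% of all genes) and HDB 15 mm wounds 7 (22.9%).

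Since the 4 comparisons share their normal samples, values of each are given side by side. Hk2 had a log2 fold change of -1.91 and -1.97 in acellular wounds of 10 and 15 mm and of -1.71 and -1.95 in HDB wounds. Pfkl had 0.60 and 0.50 in acellular wounds and 0.53 and 0.55 in HDB wounds. For Ndrg1 in HDB 15 mm wounds the log2 fold change was -0.0008, so its sign there carries nothing. These counts were sensitive to which samples were included, and so was the share of all genes called. In acellular 10 mm wounds the 6 calls became 3 without acellular replicate 2 or normal replicate 1 or 2, and 2 without normal replicate 3, while the share of all genes called in these fits was 5.8% to 11.9%. In acellular 15 mm wounds the 7 calls became 3 without normal replicate 1 and 4 without normal replicate 3, with 16.9% and 14.8% of all genes called. In HDB 10 mm wounds the 5 calls became 0 without HDB replicate 2 or 3 or normal replicate 1 or 3, and 1 without normal replicate 2, with 0.501% to 3.86% of all genes called. In HDB 15 mm wounds the 2 calls became 0 without HDB replicate 1 or 3 or normal replicate 1 or 3, and 1 without normal replicate 2, with 0.218% to 0.861% of all genes called.

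Other genes of the same pathways were taken from 3 lists. Of 22 other glycolysis genes, 3 rose and 10 fell in wounds against normal skin, with a median log2 fold change of -0.63, where 14.2% of all genes rose and 16.7% fell. The 3 that rose were Pfkp, the platelet phosphofructokinase (log2 fold change 1.11 ± 0.21, edgeR adjusted p = 0.00428), Pgam1, the widely expressed phosphoglycerate mutase (0.80 ± 0.14, adjusted p = 0.00273), and Eno1, the widely expressed enolase (0.64 ± 0.14, adjusted p = 0.00633). The deepest falls were of Pfkm, the muscle phosphofructokinase (-2.47 ± 0.68, edgeR adjusted p = 0.0184), Slc2a4, the insulin-regulated glucose transporter GLUT4 (-2.23 ± 0.53, adjusted p = 0.00994), and Eno3, the muscle enolase (-2.12 ± 0.73, adjusted p = 0.0433). The phosphofructokinase forms therefore moved in opposite directions, with Pfkl and Pfkp higher and Pfkm lower. Pfkm was at 1300 to 2170 CPM in normal skin and at 42.4 to 823 CPM in wounds, and Pfkp was at 63.1 to 73.6 CPM in normal skin and at 83.3 to 195 CPM in wounds. Gapdh, the most abundant gene of this list, fell with a log2 fold change of -1.62 ± 0.38 (SE, edgeR adjusted p = 0.00952).

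Of 22 other hypoxia targets, 7 rose and 4 fell, with a median log2 fold change of 0.10, against the same 14.2% and 16.7% of all genes. Car12, a carbonic anhydrase related to Car9, was at 12.7 to 14.5 CPM in normal skin and at 96.1 to 360 CPM in wounds, with a log2 fold change of 3.43 ± 0.45 (SE, edgeR adjusted p = 0.00108). Mif, a cytokine, rose by 0.98 ± 0.19 (adjusted p = 0.00433) and Ak4, a mitochondrial adenylate kinase, by 0.91 ± 0.12 (edgeR adjusted p = 0.00115). Gbe1, the glycogen branching enzyme, had -1.90 ± 0.38 (edgeR adjusted p = 0.00498), Stc2, a secreted glycoprotein, -1.18 ± 0.32 (adjusted p = 0.0164), and Adm, a vasodilator peptide, -1.06 ± 0.34 (adjusted p = 0.0323). Plin2, a lipid droplet protein and the most abundant gene of this list, had 0.56 ± 0.22 (edgeR adjusted p = 0.0731).

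Of 9 oxygen-sensing genes, none rose and 6 fell, against 14.2% and 16.7% of all genes. Hif3a had a log2 fold change of -2.01 ± 0.32 (edgeR adjusted p = 0.00202), from 3.76 to 4.95 CPM in normal skin to 0.467 to 1.75 CPM in wounds. Epas1, which encodes HIF-2 alpha and is abundant in endothelium, was at 288 to 322 CPM in normal skin and 73.3 to 173 CPM in wounds, with -1.39 ± 0.19 (edgeR adjusted p = 0.00123). Hif1an, the asparaginyl hydroxylase that inhibits HIF, had -0.76 ± 0.18 (edgeR adjusted p = 0.00989). Hif1a, named after its values were seen, had 0.17 ± 0.11 (edgeR adjusted p = 0.235). Endothelial markers moved beside Epas1. All 6 of them fell, none was at 0, and their summed level was 495 to 585 CPM in normal skin and 88.0 to 375 CPM in wounds. Their part in the result was not tested.

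**Figure D3:**
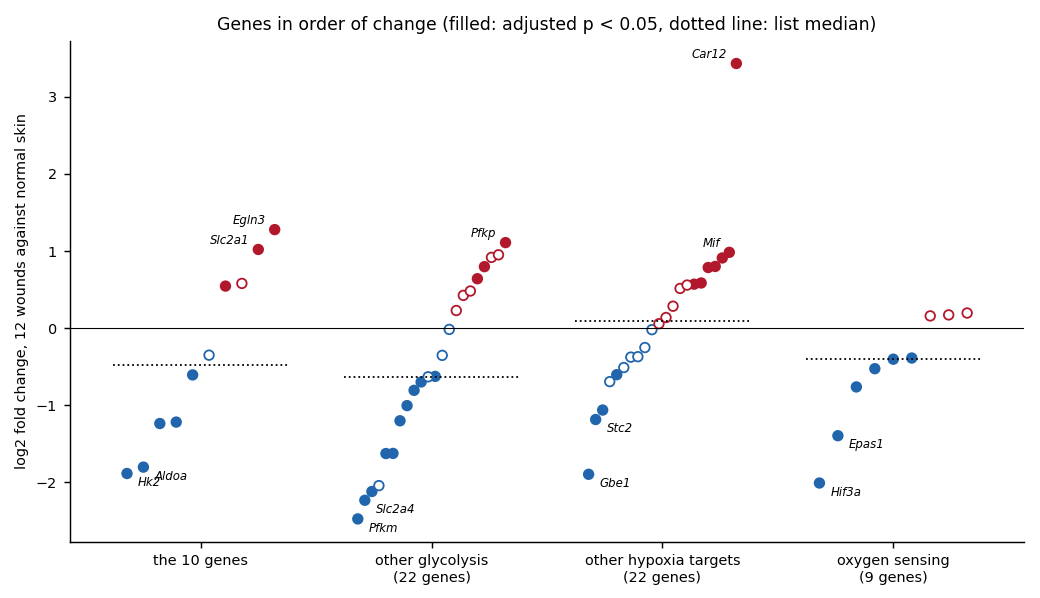
Log2 fold change of wounds against normal skin (vertical axis) for the 10 genes and 3 wider lists, with genes in order of change within each list, filled where the edgeR adjusted p was below 0.05, and the list median dotted. Car12 is the highest point and Pfkm the lowest.

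Markers of skeletal muscle were lower in wounds beside the genes that fell. The 10 muscle genes had a summed level of 46400 to 57100 CPM in normal skin, 4780 to 25700 in acellular 10 mm, 600 to 17800 in acellular 15 mm, 822 to 33700 in HDB 10 mm and 8690 to 25100 CPM in HDB 15 mm wounds. None of the 10 was at 0 in any sample, all 10 were lower in wounds (median log2 fold change -1.95), and 1 was called. Markers of other cell types moved as well. All 6 adipocyte genes were lower, 4 of them called (median log2 fold change -1.42), with summed levels of 3230 to 6490 CPM in normal skin and 610 to 5340 CPM in wounds. All 6 fibroblast genes were lower, 1 of them called, with a median of -0.98. Of 4 erythrocyte genes tested, 3 were called lower and 1 was higher (median -1.73), with summed levels of 326 to 1060 CPM in normal skin and 49.3 to 1050 CPM in wounds. All 10 genes of the hair list were higher, 5 of them called, from 11.2 to 12.9 CPM in normal skin to 23.0 to 16800 CPM in wounds. The part of these cell types was not tested. Across the 12 wound samples, Pearson's r with the mean log2 level of the muscle list was 0.962 for Aldoa, 0.930 for Ldha, 0.864 for Pgk1, 0.799 for Hk2 and 0.540 for Bnip3. It was 0.255 for Ndrg1, 0.185 for Egln3, 0.006 for Car9, -0.095 for Slc2a1 and -0.175 for Pfkl. For Bnip3, r with the erythrocyte list was 0.605, above that with muscle. These are descriptions over samples of 4 groups that share the piece of tissue, its RNA and its scaling. The 3 highest r thus belonged to abundant glycolytic enzymes that fell, and the 3 genes that rose had r between -0.175 and 0.185.

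With the mean level of the muscle list as a covariate in the fit, 4 of the 8 genes kept an adjusted p under 0.05, while the share of all genes called fell from 30.9% to 5.5%. Hk2 had -1.24 (edgeR adjusted p = 0.0124), Aldoa -0.82 (adjusted p = 0.0394), Ldha -0.64 (adjusted p = 0.0424) and Egln3 1.44 (adjusted p = 0.035). Slc2a1 had 0.80 (edgeR adjusted p = 0.0979), Pfkl 0.46 (adjusted p = 0.0754), Bnip3 -0.88 (adjusted p = 0.153) and Pgk1 -0.17 (adjusted p = 0.505). The falls of Hk2, Aldoa, Ldha, Bnip3 and Pgk1 were all smaller in this fit than without the covariate, as were the rises of Slc2a1 and Pfkl, while that of Egln3 was not. Muscle levels of wounds and normal skin do not overlap, so the covariate and the wound are told apart through the spread among wound samples.

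**Figure D4:**
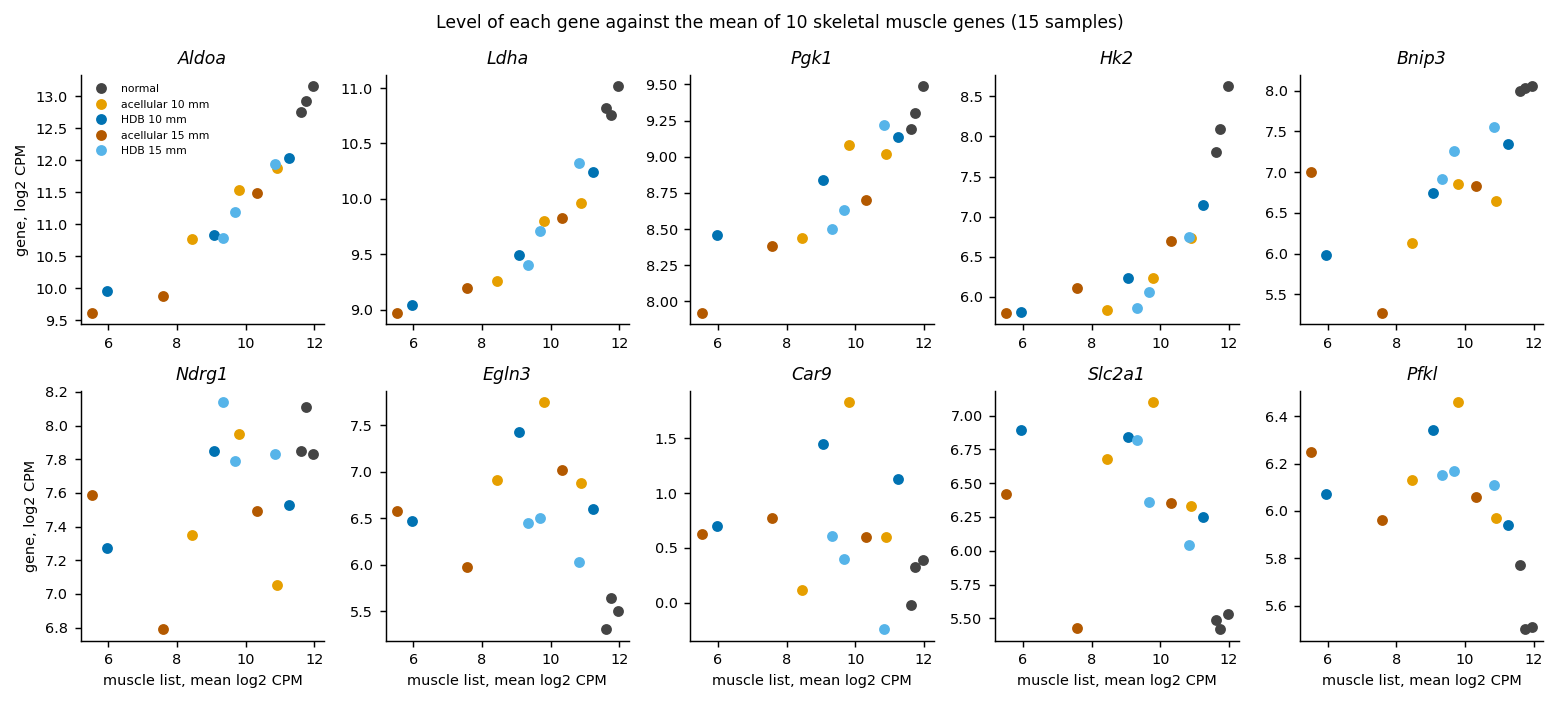
Log2 CPM of each gene (vertical axes) against the mean log2 CPM of 10 skeletal muscle genes (horizontal axes) in the 15 samples, coloured by group. Aldoa and Ldha follow the muscle list over the whole range, and Slc2a1, Pfkl and Egln3 are lowest or near lowest in the 3 normal samples at the right.

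Epidermal markers were compared in the same way. The summed level of the 10 epidermal genes was 7430 to 8740 CPM in normal skin and 6300 to 17900 CPM in wounds. Of these genes 7 were higher and 3 lower in wounds, with 3 called higher and 2 called lower. Their mean log2 level was 8.47 in normal skin and 8.32 to 8.73 in the 4 wound groups. The summed level of 7 wound keratinocyte genes, led by Krt17, was 395 to 533 CPM in normal skin and 737 to 3850 CPM in wounds. All 7 wound keratinocyte genes were higher in wounds (median log2 fold change 1.78), and 4 were called. Across the 12 wounds, r with the epidermal list was 0.811 for Slc2a1, 0.535 for Egln3 and 0.431 for Pfkl, and -0.518 for Ldha and -0.579 for Hk2. With the wound keratinocyte list, r was 0.493 for Slc2a1, 0.197 for Egln3, 0.268 for Pfkl, -0.546 for Ldha and -0.581 for Hk2. The part of these cells in the rise of Slc2a1 was not tested. Among the 10 genes themselves, r across wounds was 0.960 for Aldoa and Ldha, 0.908 for Aldoa and Pgk1, and 0.892 for Hk2 and Ldha. It was 0.704 for Slc2a1 and Egln3, 0.725 for Bnip3 and Ndrg1, and -0.341 for Slc2a1 and Hk2.

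The genes whose pattern over the 15 samples was most like that of each member were named by Pearson's r of log2 CPM, a description that includes the step from normal skin to wounds. Aldoa was most like the glycolytic enzyme gene Tpi1 (0.993), and so was Pgk1 (0.951). Ldha was most like Pkm (0.988), also glycolytic. Hk2 was most like Camk2g (0.986), Bnip3 like Tmem150a (0.978), Slc2a1 like the chemokine gene Cxcl16 (0.976) and Ndrg1 like Dpysl2 (0.939). The highest r was 0.915 for Pfkl (Gzmc), 0.906 for Egln3 (Atp10b) and 0.783 for Car9 (Fnbp4).

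The effect of the printed MSCs was addressed by comparing HDB with acellular wounds of the same size. None of the 10 genes was called at either size. At 10 mm the log2 fold changes lay between -0.34 for Egln3 and 0.22 for Bnip3, with 4 higher and 6 lower and a median of -0.03. No gene of the whole table was called there (0%) by edgeR, and 15 were by DESeq2, none of them a member. An unadjusted p under 0.05 was reached by 0 of the 10 genes and by 3.53% of all genes, and samples of HDB and acellular wounds failed to overlap for 0 of the 10 and for 11% of all genes. Without acellular 10 mm replicate 2, whose Egln3 level was 215 CPM against 120 and 118 CPM in its group, the value of Egln3 was -0.0016, and over all alternatives it lay between -0.71, without HDB 10 mm replicate 3, and -0.0016. The SE at 10 mm was 0.32 for Egln3 and 0.40 for Bnip3, so changes of that size were not detectable with 3 samples.

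At 15 mm, where 2.92% of all genes were called, 8 of the 10 genes were higher and 2 lower with HDB, with a median log2 fold change of 0.38 against 0.004 for all genes. Ndrg1 was at 222, 228 and 283 CPM with HDB and at 110, 180 and 192 CPM with acellular beads, so its samples did not overlap, which held for 20.3% of all genes. Its log2 fold change was 0.60 ± 0.25 (SE) with an unadjusted edgeR p of 0.0344 and an adjusted p of 0.180. It was the sole member with an unadjusted p under 0.05, which 23.2% of all genes reached. Without acellular 15 mm replicate 1, its log2 fold change was 0.39 (adjusted p = 0.440 in edgeR).

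The background of 2.92% at 15 mm, 449 genes, was itself unstable. It became 0 genes on leaving out any of the HDB 15 mm samples, 152 without acellular 15 mm replicate 1, 651 without replicate 2 and 2322 without replicate 3. It was 179 with the replicate block, by which these samples are treated as pairs, 0 with only the groups compared, 0 with the length trend removed, 192 without a filter, 695 with the stricter filter and 1791 with DESeq2. The 10 genes gave 0 calls in each of these fits.

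The glycolytic genes at 15 mm varied widely within each group. Aldoa was at 2340, 3940 and 1760 CPM with HDB and at 937, 2870 and 780 CPM with acellular beads, a log2 fold change of 0.81 ± 0.58 (SE, edgeR adjusted p = 0.425). Bnip3 was at 153, 189 and 121 CPM with HDB and at 38.6, 114 and 128 CPM with acellular beads (0.72 ± 0.40, edgeR adjusted p = 0.302). Both genes overlapped between the groups. No label pairs these samples, and the pairing by replicate number was inferred from these same data. Under it, HDB was higher in 3 of 3 same-number comparisons for Aldoa, Pgk1, Ldha and Ndrg1. It was higher in 2 of 3 for Bnip3, Hk2, Pfkl and Slc2a1, in 1 of 3 for Egln3 and in 0 of 3 for Car9. The share of all genes with HDB higher in 3 of 3 was not counted. Aldoa, Pgk1 and Ldha also varied together across the 12 wounds. With the replicate block none of the 10 genes was called. The muscle list was higher with HDB in the same samples, with summed levels of 12200, 25100 and 8690 CPM against 2830, 17800 and 600 CPM. All 10 hair genes had a negative log2 fold change with HDB at 15 mm (median -4.44) and all 6 fibroblast genes a positive one (median 0.98), with none called. Summed levels of the hair list were 515, 109 and 114 CPM with HDB and 16800, 1210 and 30.2 CPM with acellular beads. Acellular replicate 3 thus lay below every HDB sample. Across the 12 wounds, r of Ndrg1 was -0.537 with the hair list and 0.255 with the muscle list, and the part of hair and fibroblasts was not tested. With the muscle list as a covariate the log2 changes were 0.086 for Aldoa, 0.38 for Bnip3, 0.59 for Ndrg1, 0.099 for Pgk1 and 0.0 for Ldha, none of them called. In the same fit they were 0.46 for Slc2a1, 0.12 for Pfkl, -0.36 for Egln3, -0.49 for Car9 and -0.52 for Hk2. These were larger in size than without the covariate, and none was called. Over all alternatives Bnip3 lay between 0.35 and 1.02 and Ndrg1 between 0.39 and 0.75. Aldoa rose to 1.64 without acellular 15 mm replicate 2, the sample of that group with the most muscle RNA, and over all alternatives its adjusted p lay between 0.106 and 0.843. Ldha had 0.48 ± 0.34 (edgeR adjusted p = 0.412), Pgk1 0.45 ± 0.26 (adjusted p = 0.322) and Slc2a1 0.31 ± 0.28 (adjusted p = 0.533). Slc2a1 was at 0.056 without acellular 15 mm replicate 1, the sample with high hair genes, and at 0.076 without HDB 15 mm replicate 3. Pfkl had 0.05 ± 0.14 (edgeR adjusted p = 0.861) and Hk2 0.02 ± 0.38 (adjusted p = 0.981), and the 2 lower genes were Egln3 with -0.25 ± 0.32 (adjusted p = 0.664) and Car9 with -0.40 ± 0.44 (adjusted p = 0.610). Over all alternatives Car9 lay between -0.63 and -0.17, Ldha between 0.0 and 0.77 and Pgk1 between 0.099 and 0.65.

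**Figure D5:**
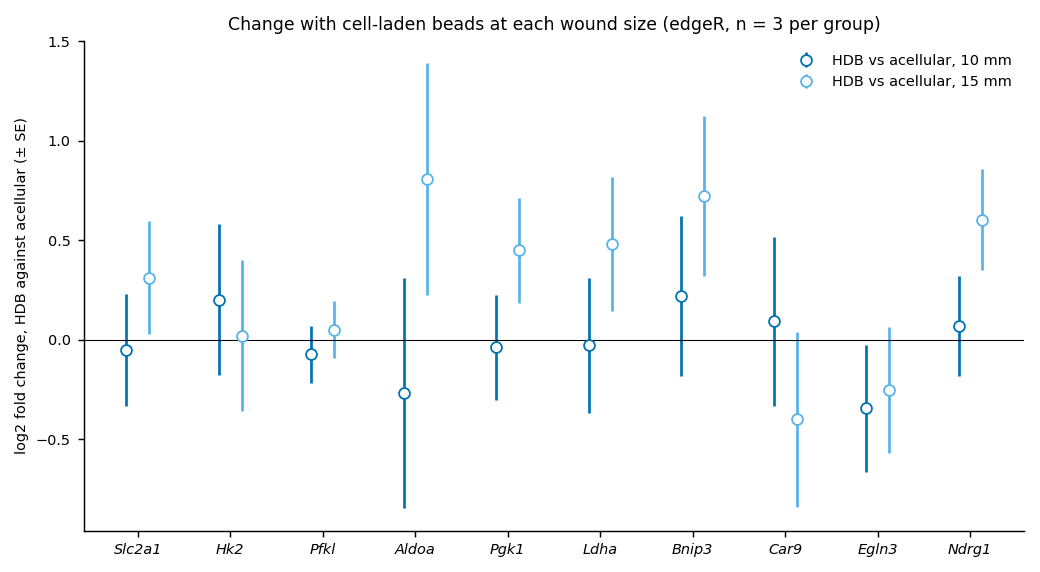
Log2 fold change of HDB against acellular wounds (vertical axis, ± SE) for each gene at 10 mm and 15 mm, from edgeR with 3 samples per group. No gene reached an adjusted p of 0.05, and at 15 mm Aldoa, Bnip3 and Ndrg1 are the highest points.

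Over both sizes none of the 10 genes was called, nor any other gene (0%), and 0 of the 10 against 15.8% of all genes had an unadjusted p under 0.05. Bnip3 had a log2 fold change of 0.47, Ndrg1 of 0.34 and Egln3 of -0.30. Over the alternatives these lay between 0.29 and 0.62 for Bnip3, 0.23 and 0.48 for Ndrg1, and -0.48 and -0.13 for Egln3. The lowest values of Bnip3 and Ndrg1 came without acellular 15 mm replicate 1, and that of Egln3 nearest to 0 came without acellular 10 mm replicate 2. The difference between the HDB effects at the 2 sizes, tested as an interaction, called none of the 10 genes and none of all genes (0%), with an unadjusted p under 0.05 for 0 of the 10 and 13.4% of all genes. The highest interaction was that of Aldoa, at 1.07 on the log2 scale, and at 0.13 with the muscle covariate to 1.91 without acellular 15 mm replicate 2. DESeq2 also called 0 of the 10 genes in each of these comparisons, and 223 and 609 genes of the table over both sizes and for the interaction. Without acellular 15 mm replicate 3, edgeR called 229 genes over both sizes, none of them a member. Of the wider lists, 0 of 22 glycolysis genes, 0 of 22 hypoxia targets and 0 of 9 oxygen-sensing genes were called at either size or over the sizes together.

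Wound size was compared within each treatment. In acellular wounds all 10 genes were lower at 15 mm than at 10 mm, between -0.88 for Aldoa and -0.03 for Bnip3, with a median of -0.36 against 0.064 for all genes. None was called, nor any gene of the table (0%), and an unadjusted p under 0.05 was reached by 0 of the 10 and 17.5% of all genes. Samples of the 2 sizes overlapped for each of the 10, while 16.5% of all genes did not overlap. The 10 muscle genes were also lower at 15 mm, with a median of -1.12, and with their mean level as a covariate the log2 fold change of Aldoa was -0.26. It was -1.72 without acellular 15 mm replicate 2. DESeq2 called 726 genes of the table for size in acellular and 382 in HDB wounds, and 0 of the 10 in either. With edgeR, the count of genes called for size in acellular wounds was 526 without acellular 15 mm replicate 3 and 146 with the muscle covariate, with 0 members in both. In HDB wounds 5 genes were higher and 5 lower at 15 mm, none was called among them or in the table (0%), and 0 of the 10 and 12.3% of all genes had an unadjusted p under 0.05. Car9, at 1.2, 0.727 and 1.41 CPM in 15 mm and 2.07, 1.51 and 2.61 CPM in 10 mm HDB wounds, was the sole member without overlap, which 22.9% of all genes shared. Its log2 fold change was -0.88 ± 0.44 (SE, edgeR adjusted p = 0.438).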

How the data were processed

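The series measured RNA of mouse skin by bulk sequencing (15 samples, 5 groups of 3). The authors deposited estimated counts (expected counts) per gene, not normalized. The submitters' processing notes name HISAT2 2.0.4, Bowtie2 2.2.5, RSEM 1.2.12 and build GRCm38.p6, without their order or role. Aldoa, Ldha, Pgk1 and Gapdh have processed copies elsewhere in the mouse genome, and reads shared out between copies leave their counts uncertain. Column names gave the sample of each column.

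The values were rounded to whole counts and fitted in edgeR 4.0.16 (R 4.3.3) with TMM, filterByExpr and 1 model of 5 group means, and the quasi-likelihood test was adjusted by Benjamini-Hochberg over 15369 genes at 0.05. SEs were derived from the size of each log2 change and its F value (change over root F), and a prior count of 2 was added for log2 CPM. On counts simulated for wounds against normal skin, 65% of changes of 1 and 96% of changes of 2 on the log2 scale were recovered. These fits held 15287 and 15301 genes, of which a small sample was altered, each with a mean level above that of Car9. The recovery thus does not cover Car9, and far fewer genes were altered than were called in the data.

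Members, gene lists and tests were chosen with earlier results of these data known. From the lists, up to 3 called genes with the largest rise and 3 with the largest fall in a comparison and the most abundant gene were named, and of the pattern matches the closest. Lengths came from GENCODE M21 for 98.2% of tested genes. The alternatives tried were DESeq2 1.42.0 (own size factors), no filter, a mean of at least 50 counts, a fit restricted to the groups compared, a block for replicate number, each sample left out in turn, a log2 change of at least 1, the muscle list as a covariate, and removal of the trend with transcript length with and without the block. Same-number samples deviated together (r above 0.1 in all 3 pairs) between acellular and HDB 15 mm wounds alone, with r of 0.397, 0.167 and 0.183. Numbers were therefore treated as pairing these groups, though no label says what they mark. Single numbers in other group comparisons had r of 0.489 and -0.545, so these r do not establish a pairing.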

Additional observations from a re-analysis of the deposited data

How the results depend on the processing

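In the comparisons of HDB with acellular wounds, of wound sizes and of the interaction, the count of members called was 0 under every alternative run. For wounds against normal skin the count of members called was 8, with 30.9% of all genes called. With the muscle covariate it was 4, with 5.5% of all genes called. It was 5 to 8 on leaving out 1 sample at a time (11.9% to 40.1% of all genes), with 5 without normal replicate 3. In acellular 10 mm wounds the 6 calls (20.3% of all genes) became 2 to 4 on leaving out a sample (5.14% to 11.9%). In acellular 15 mm wounds the 7 calls (30.2% of all genes) became 2 with only the groups compared (6.57%) and 0 with the muscle covariate (4.39%). They became 3 to 8 without a sample (14.8% to 37.3%). In HDB 10 mm wounds the 5 calls (12.3% of all genes) became 3 with the replicate block (7.72%) and 0 with the covariate (0.39%). They became 3 with the block and the length trend removed (6.58%) and 0 to 7 without a sample (0.501% to 17.5%). In HDB 15 mm wounds the 2 calls (5.18% of all genes) became 5 with DESeq2 (14.9%) and 7 with only the groups compared (22.9%). They became 1 without a filter (3.32%), 1 with the covariate (2.11%) and 0 with the replicate block (1.54%). They became 1 with the block and the length trend removed (1.78%) and 0 to 2 without a sample (0.218% to 8.61%). With a log2 change of at least 1 they became 1, and the share of all genes was not counted there. The numbers pair no wound group with normal skin, so these block values concern samples that share only a number. At 15 mm, where they are treated as pairs, the block gave 0 members called. The cause was not tested for any of these shifts.

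Some log2 fold changes of HDB against acellular wounds, none of them called, changed sign. Hk2 at 15 mm was -0.52 with the muscle covariate and -0.29 to 0.31 without a sample. Without a sample, Pfkl at 15 mm was -0.013 to 0.13, Egln3 at 15 mm -0.48 to 0.026 and Bnip3 at 10 mm -0.13 to 0.52. The log2 fold changes of the 10 genes for all wounds against normal skin, and those of genes called in a single wound group, kept their sign in the alternatives run, and other values of single groups, such as that of Ndrg1 in HDB 15 mm wounds, were not rerun. Car9 fell below the stricter filter and has no value there. Only the groups compared cannot be set apart for the mean of all wounds. Of the members, Car9 had the fewest counts, 12 to 61 per sample.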
